A study of Mus musculus with 6 samples.

Results

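The genes described are 36 members of the unfolded protein response and the integrated stress response, measured on 6 arrays of cultured mouse keratinocytes that lacked the zinc finger transcription factors Ovol1 and Ovol2, Ovol1 alone, or neither. Members were chosen by gene symbol, each through the brightest probe set that carries 1 symbol, and all 36 were found among the 19938 genes tested. They comprise 9 transcription factors and regulators of the integrated stress response, 5 amino acid and one-carbon enzymes, 4 sensors of endoplasmic reticulum (ER) stress or factors they act through, 11 ER chaperones or co-chaperones, 3 protein disulfide isomerases and 4 genes of ER-associated degradation. The double knockout group (DKO) carried Ovol2flox/-;K14-Cre; Ovol1-/-, with Cre driven by a keratin promoter of basal keratinocytes. The Ovol1 knockout group (Ovol1 KO) carried Ovol1-/-. Controls carried one of a pair of genotypes that the labels do not assign to single arrays, Ovol2flox/+; Ovol1+/- or Ovol2flox/+;K14-Cre, so that no array held wild-type cells. Each group had 2 arrays and each array pooled the RNA of 2 mice, of strain C57BL/6 at stage E18.5 with a female label. In every group the skin keratinocytes were cultured for 2 to 5 days and then kept in calcium, which starts their differentiation, for 3 to 5 more days.

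Unfolded proteins in the ER are sensed by a trio of membrane proteins: Ern1 (IRE1 alpha), which splices the Xbp1 mRNA into its active form, Eif2ak3 (PERK), a kinase that phosphorylates the translation factor eIF2 alpha, and Atf6, a membrane-bound transcription factor freed by proteolysis. Phosphorylated eIF2 alpha lowers protein synthesis in general but favours translation of Atf4, which then drives genes of amino acid supply and stress, and other kinases feed the same step when amino acids or haem are short. That wider circuit is the integrated stress response, while Xbp1 and Atf6 act mainly on chaperones, disulfide isomerases and degradation factors of the ER. Keratinocytes make much membrane and secreted protein as they differentiate, and parts of the unfolded protein response have been linked to that step.

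Both branches are read by short DNA elements, and the promoters are shown first because they divide the members independently of the arrays. RefSeq promoters of assembly GRCm38.p6, each reaching from 250 bases before to 50 bases after a start site, were found for 33 of the 36 members, and Atf6, Hyou1 and Manf were not matched. They were searched on both strands for TGATGNAA, the C/EBP-ATF response element core bound by Atf4 with its partners, for the ER stress response element (CCAAT, then 9 bases, then CCACG), and for TGACGTGG, an unfolded protein response element core. The C/EBP-ATF element was present in 5 members, namely Atf3, Trib3, Chac1, Asns and Herpud1, and in 3.97% of all 32851 promoters of the table. The ER stress response element was present in 8 members, namely Hspa5, Hsp90b1, Dnajc3, Calr, Canx, Creld2, Pdia6 and Syvn1, against 0.119% of all promoters. No member held both in these forms, and TGACGTGG was in 0 members and 0.676% of all promoters. Other arrangements of the ER stress response element were not searched. Herpud1 and Dnajb11, for example, hold ATTGG, which is CCAAT on the opposite strand, just before CCACG. Counted by gene, the 3 elements were in 4.51%, 0.137% and 0.714% of the 27025 genes of the table, in the same order. These are matches of letters in the promoter windows of each gene, not measured binding sites.

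The 250 bases upstream of the start site are printed for 4 members with the C/EBP-ATF element, which is in capitals and reads TTGCATCA where it lies on the opposite strand, as in Atf3, Chac1 and Herpud1. The windows lie at chr2:119350992-119351241 on the plus strand for Chac1, chr6:7693210-7693459 on the minus strand for Asns, chr1:191183334-191183583 on the minus strand for Atf3 and chr8:94386179-94386428 on the plus strand for Herpud1. In Trib3 the match lay 15 to 22 bases after the start site, outside such a window.
Chac1: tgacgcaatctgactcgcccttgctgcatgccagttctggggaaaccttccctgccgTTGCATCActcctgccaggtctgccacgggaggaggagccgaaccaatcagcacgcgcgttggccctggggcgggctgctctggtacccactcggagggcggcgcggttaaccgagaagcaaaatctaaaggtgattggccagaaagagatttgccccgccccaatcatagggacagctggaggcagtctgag
Asns: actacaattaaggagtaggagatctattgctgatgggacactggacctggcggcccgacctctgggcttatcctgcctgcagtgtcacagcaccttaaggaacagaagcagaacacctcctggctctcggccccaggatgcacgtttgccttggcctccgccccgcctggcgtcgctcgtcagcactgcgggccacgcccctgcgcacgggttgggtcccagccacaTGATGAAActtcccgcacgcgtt
Atf3: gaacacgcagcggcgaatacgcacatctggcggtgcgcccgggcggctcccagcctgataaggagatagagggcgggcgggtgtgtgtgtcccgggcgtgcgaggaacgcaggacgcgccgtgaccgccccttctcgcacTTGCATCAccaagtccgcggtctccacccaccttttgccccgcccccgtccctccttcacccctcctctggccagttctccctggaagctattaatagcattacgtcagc
Herpud1: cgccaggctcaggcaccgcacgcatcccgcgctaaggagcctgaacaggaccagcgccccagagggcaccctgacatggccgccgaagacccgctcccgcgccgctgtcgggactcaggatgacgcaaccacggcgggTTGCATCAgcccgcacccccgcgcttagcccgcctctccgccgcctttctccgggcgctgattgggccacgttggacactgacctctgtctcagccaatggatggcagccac

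The same stretch is printed for Hspa5 (chr2:34771840-34772089, plus strand) and Hsp90b1 (chr10:86705445-86705694, minus strand), the main ER chaperones among the members, with the whole ER stress response element in capitals. Hsp90b1 held it once on each strand, 212 to 194 and 107 to 89 bases before the start site. Ppp1r15a (chr7:45526269-45526518, minus strand) is added as the single member whose level passed the test, and in it none of the 3 searched elements was found.
Hspa5: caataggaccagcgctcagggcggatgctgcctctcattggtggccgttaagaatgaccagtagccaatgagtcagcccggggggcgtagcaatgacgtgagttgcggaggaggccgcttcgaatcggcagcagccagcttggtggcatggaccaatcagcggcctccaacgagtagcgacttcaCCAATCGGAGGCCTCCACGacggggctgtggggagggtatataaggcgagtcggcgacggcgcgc
Hsp90b1: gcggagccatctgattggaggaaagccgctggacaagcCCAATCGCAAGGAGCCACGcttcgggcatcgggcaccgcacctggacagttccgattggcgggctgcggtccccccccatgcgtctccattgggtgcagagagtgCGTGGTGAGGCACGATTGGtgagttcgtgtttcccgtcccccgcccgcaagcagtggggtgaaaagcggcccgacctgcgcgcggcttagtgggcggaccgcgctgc
Ppp1r15a: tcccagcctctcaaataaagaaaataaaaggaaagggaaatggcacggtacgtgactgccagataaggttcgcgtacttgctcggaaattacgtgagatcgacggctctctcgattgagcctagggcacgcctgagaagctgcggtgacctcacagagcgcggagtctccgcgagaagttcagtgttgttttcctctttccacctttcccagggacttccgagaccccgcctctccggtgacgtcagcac

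Aligned as read on the strand of the match, with CCAAT and CCACG in capitals, the element shows how far the 9 inner bases vary among these 8 members while the outer bases are fixed by the search.
Hspa5: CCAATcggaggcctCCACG
Hsp90b1: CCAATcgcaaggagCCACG
Hsp90b1, second match: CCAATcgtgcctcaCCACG
Dnajc3: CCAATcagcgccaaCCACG
Calr: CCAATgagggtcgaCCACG
Canx: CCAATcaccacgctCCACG
Creld2: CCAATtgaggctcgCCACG
Pdia6: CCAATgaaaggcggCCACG
Syvn1: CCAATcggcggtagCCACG

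**Figure D1:**
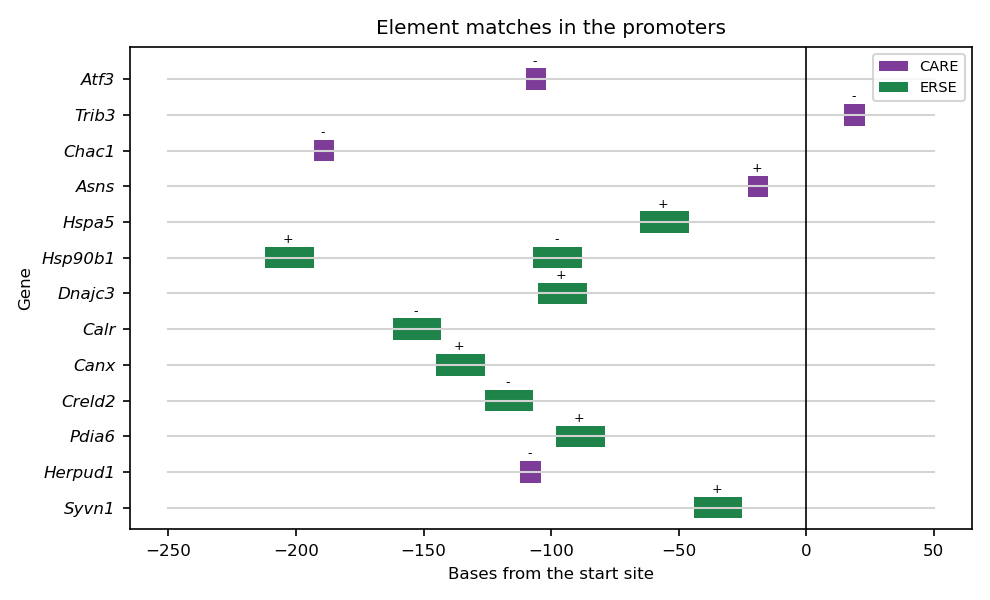
Position of each element match (x axis, bases from the RefSeq start site, negative before it) in the 13 members that held one (y axis); purple boxes are the C/EBP-ATF element (CARE), green boxes the ER stress response element (ERSE), and + or - gives the strand of the match relative to the gene. The ER stress response elements lay between 212 and 26 bases before the start site and the C/EBP-ATF elements between 193 bases before and 22 bases after it.

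All levels below are log2(intensity + 16) after quantile normalization and are compared only within a gene. With 2 arrays a group, the number of arrays limits the precision. Several features of the arrays move with the groups. Xist, the X-inactivation RNA of female cells, lay at 12.12 and 12.26 on the DKO arrays, 4.59 and 11.97 on the Ovol1 KO arrays and 4.71 and 4.65 on the control arrays, and Y-linked Kdm5d split the arrays in the opposite way, so that the DKO and control groups also differed in sex-linked genes despite the shared female label. The group means of the deleted genes were not lower in the knockouts than in controls. Ovol1 lay at 10.58 and 10.59 on the DKO arrays, 10.53 and 10.22 on the Ovol1 KO arrays and 10.27 and 9.85 on the control arrays, with both DKO arrays above all 4 others. Ovol2 lay at 8.71 and 8.32 in DKO and at 8.12 and 8.82 in control, with both Ovol1 KO arrays above these, the lower of them at 8.99. Whether these probe sets lie in the deleted parts is not stated in the sources used here, so they check no label, and the groups are named as labelled. The keratinocyte markers Krt5 and Krt14 lay between 13.61 and 13.94 on every array. In DKO against control, 2 of 10 keratinocyte markers rose, Krt1 and Krt10, keratins of the differentiating layers, and 1 fell, Itgb4. Their log2 fold changes were 4.15, 4.14 and -0.79, so the keratinocyte state itself differed between these groups. The mean of 8 melanocyte markers was 7.82 and 6.61 on the DKO arrays, 9.38 and 6.97 on the Ovol1 KO arrays and 9.05 and 6.87 on the control arrays. One of them, Kit, fell in DKO. Dct, a defining one, lay at 8.01, 10.44 and 9.75 on array 1 of DKO, Ovol1 KO and control. On array 2 of each group it lay at 5.31 or below. Not all 8 split in this way, and Sox10 lay between 8.46 and 8.87 on every array. The mean of 4 endothelial markers was 6.59 and 6.52 in DKO, 7.62 and 7.20 in Ovol1 KO and 7.87 and 7.16 in control, and 0 of the 4 passed. Of 8 fibroblast markers 1 fell, Pdgfra, but only 3 lay below 0 in DKO against control, and the median log2 fold change was 0.15. Thy1 had the highest value of the 8, 2.11, and did not pass. Of 6 immune cell markers 0 passed. The part of sex-linked genes and of other cell types in the results below was not tested. Fits with Xist as a covariate are given below, but they cannot tell sex-linked genes from genotype in DKO against control. Xist was high on both DKO arrays and low on both control arrays. Since RNA of whole cultures was measured, fewer cells of a type and less RNA per cell cannot be told apart.

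DKO against control asked what the loss of both Ovol genes does to differentiating keratinocytes. Among the stress response genes, 1 of 36 passed the test, Ppp1r15a, which fell, against 639 called genes or 3.2% of all 19938 genes in either direction and 2.26% of all genes in the downward direction. Called here means an adjusted p below 0.05 in limma's moderated test, with Benjamini-Hochberg adjustment over all genes. At an unadjusted p below 0.05, 11 members were lower in DKO, against 8.53% of all genes, and 0 were higher, against 5.96% of all genes. Both DKO arrays lay below both control arrays in 15 members, against 21.5% of all genes, and above both in 1 member, Xbp1, against 23.1% of all genes. The median log2 fold change over the 36 members was -0.31, beside 0.02 over all genes tested, and 29 members lay below 0, against 45.7% of all genes. This median turned on single arrays: it was -0.55 without control 1, -0.11 without control 2, -0.17 without DKO 1 and -0.50 without DKO 2, and it was -0.60 with Xist as a covariate.

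**Figure D2:**
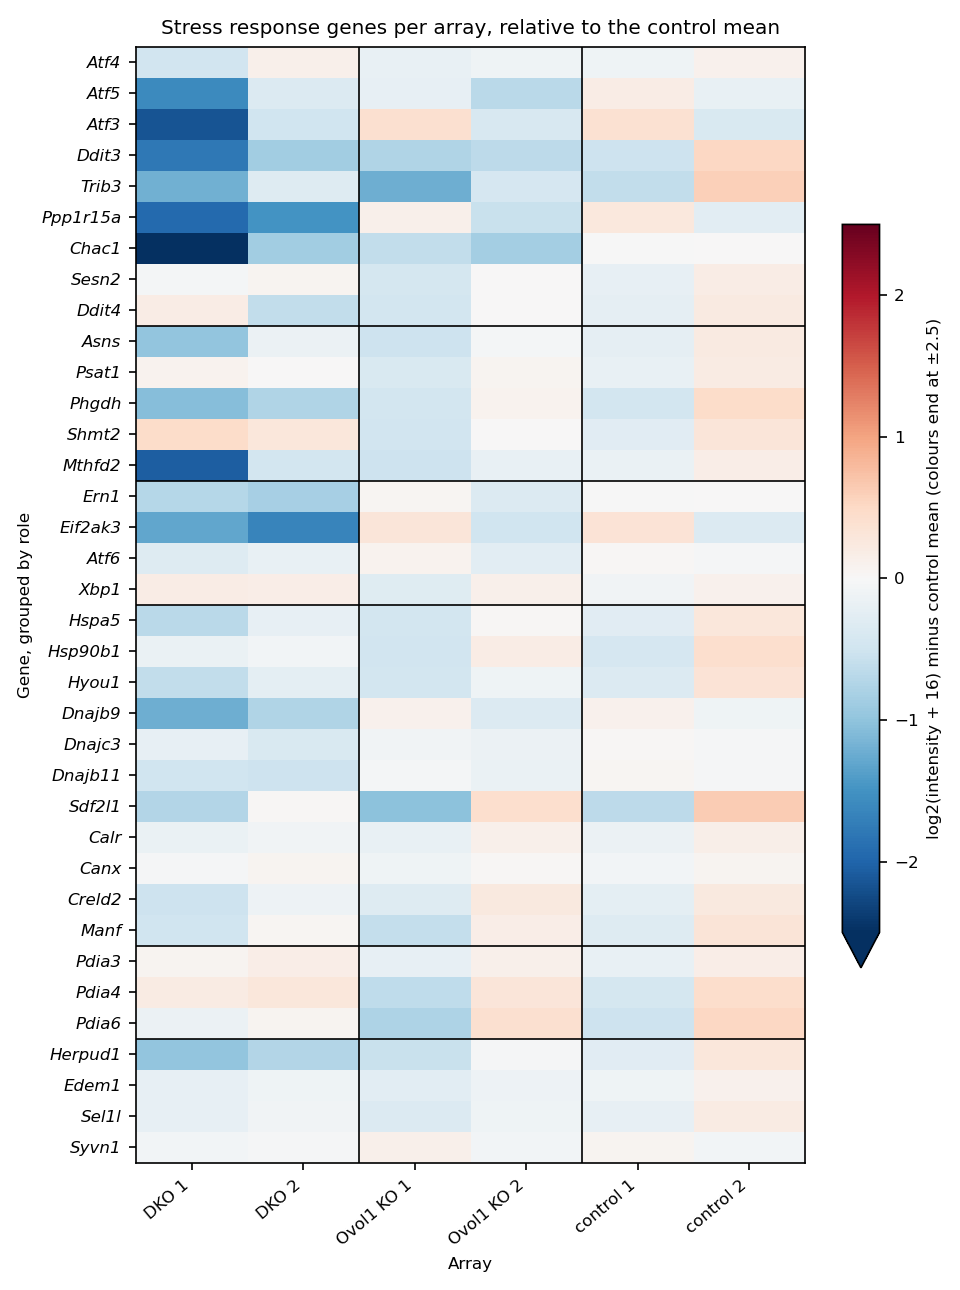
Each member (rows, grouped by role) on each array (columns, DKO, Ovol1 KO, control) as its log2(intensity + 16) minus the control mean of that gene; blue is below and red above the control mean, and colours end at 2.5 log2 units. The darkest cells lie on DKO 1, led by Chac1, while the ER chaperones and disulfide isomerases stay paler and often differ between arrays 1 and 2 of a group.

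The regulators of the integrated stress response held the 1 called member and the lowest value of all 36 in DKO against control. Ppp1r15a (GADD34) guides protein phosphatase 1 to eIF2 alpha and so ends the response that induces it. Its level was 8.87 and 9.31 on the DKO arrays, 10.94 and 10.25 on the Ovol1 KO arrays and 11.07 and 10.55 on the control arrays. Both DKO arrays lay below all 4 others, with a gap of nearly 1 log2 unit between the groups. Ppp1r15a fell by 1.72 on the log2 scale in DKO against control (SE 0.30, limma adjusted p = 0.033), which is 3.30-fold lower. The call was lost when control 1 was left out (log2 fold change -1.46, adjusted p = 0.076), when DKO 1 was left out (-1.50, adjusted p = 0.18), when DKO 2 was left out (-1.94, adjusted p = 0.089), and with the Xist level as a covariate (-1.04, adjusted p = 0.79).

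Chac1, an enzyme that degrades glutathione and a sensitive target of Atf4, gave 8.36 and 10.83 on the DKO arrays, 11.09 and 10.86 on the Ovol1 KO arrays and 11.70 and 11.72 on the control arrays. DKO 1 stood far below every other array, whereas DKO 2 lay just under Ovol1 KO 2. The log2 fold change in DKO against control was -2.12 (SE 0.68, limma adjusted p = 0.20), the most negative of the 36, and it did not pass the test. The DKO arrays differed by 2.47. Without DKO 2 the log2 fold change was -3.35 and without DKO 1 it was -0.88.

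Ddit3 (CHOP), a transcription factor linked to cell death in prolonged ER stress, had 8.13 and 9.06 in DKO, 9.17 and 9.28 in Ovol1 KO and 9.40 and 10.45 in control. The 3 groups did not overlap and followed one another in this order, but the control arrays themselves were 1.05 apart. Its log2 fold change in DKO against control was -1.33 (SE 0.42, limma adjusted p = 0.19). Without control 1 it was -1.86 and passed the test (adjusted p = 0.046).

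Atf3, a stress-induced factor of the same family as Atf4, lay at 7.89 and 9.55 in DKO, 10.45 and 9.64 in Ovol1 KO and 10.43 and 9.66 in control. DKO 2 lay only about 0.1 below the lower arrays of the other groups. The log2 fold change in DKO against control was -1.33 (SE 0.56, limma adjusted p = 0.35). Trib3, a pseudokinase that restrains Atf4 and Ddit3, gave 9.16 and 10.04 in DKO, 9.15 and 9.94 in Ovol1 KO and 9.76 and 10.97 in control. Its arrays overlapped between the groups, and the log2 fold change was -0.77 in DKO against control (SE 0.48, limma adjusted p = 0.57).

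Atf4 itself, which is controlled mainly at translation, had 10.96 and 11.56 in DKO, 11.25 and 11.33 in Ovol1 KO and 11.33 and 11.54 in control. The DKO arrays spanned the values of all others, and the log2 fold change of the mRNA was -0.17 (SE 0.21, limma adjusted p = 0.83). The remaining regulators did not pass either: Atf5, a translationally controlled relative of Atf4, had a log2 fold change of -0.97 (adjusted p = 0.34), while Sesn2 and Ddit4, stress-induced inhibitors of mTORC1 signalling, had 0.01 and -0.22. Over the 9 regulators, 1 fell, 8 did not pass, and the median log2 fold change was -0.97.

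Of the 5 enzymes of amino acid and one-carbon metabolism, 0 passed in DKO against control and the median log2 fold change was -0.57, with values from -1.26 to 0.36. Asns, which makes asparagine and is a standard Atf4 target, gave 11.67 and 12.51 in DKO, 12.14 and 12.61 in Ovol1 KO and 12.43 and 12.88 in control. DKO 1 was the lowest array and control 2 the highest, but DKO 2 lay above control 1. Its log2 fold change was -0.57 (SE 0.30, limma adjusted p = 0.48).

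None of the serine and folate enzymes passed, and their values lay on both sides of 0. Phgdh, the first enzyme of serine synthesis, had a log2 fold change of -0.90 (SE 0.33, limma adjusted p = 0.27), and Psat1, the next enzyme of the same path, 0.05. Mthfd2, a mitochondrial folate enzyme, had -1.26 (SE 0.47, adjusted p = 0.28), with 9.37 and 10.97 in DKO, 10.91 and 11.25 in Ovol1 KO and 11.27 and 11.59 in control. DKO 1 was far below the rest, and DKO 2 lay between the Ovol1 KO arrays. Shmt2, its mitochondrial neighbour, gave 11.93 and 11.75 in DKO, 11.00 and 11.49 in Ovol1 KO and 11.19 and 11.77 in control. DKO lay above both Ovol1 KO arrays but overlapped control 2, and the log2 fold change against control was 0.36 (SE 0.24, adjusted p = 0.60). Single arrays decided some of these results: Phgdh passed without control 1 (-1.36, adjusted p = 0.048) and Mthfd2 without DKO 2 (-2.06, adjusted p = 0.027).

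Among the ER stress sensors, the mRNAs of Eif2ak3 and Ern1 lay lower in DKO while those of Atf6 and Xbp1 stayed close to control, and 0 of 4 passed the test. Eif2ak3 gave 9.20 and 8.85 in DKO, 10.81 and 10.00 in Ovol1 KO and 10.84 and 10.16 in control. DKO was well below the other 4 arrays, and arrays 1 exceeded arrays 2 in each group. Its log2 fold change was -1.47 (SE 0.34, limma adjusted p = 0.081), and it passed without control 2 (-1.82, adjusted p = 0.027).

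Ern1 had 9.10 and 8.97 in DKO, 9.86 and 9.47 in Ovol1 KO and 9.79 and 9.82 in control. The DKO arrays were the lowest pair again, and here the arrays within DKO and within control were close. Its log2 fold change was -0.77 (SE 0.20, limma adjusted p = 0.11). Xbp1, the target of Ern1, had 12.13 and 12.12 in DKO, 11.65 and 12.07 in Ovol1 KO and 11.86 and 12.05 in control. It was the one member in which both DKO arrays lay above all 4 others, by 0.17 on average over control (SE 0.16, adjusted p = 0.74), and the probe set does not tell the spliced form from the unspliced one. Atf6 stood at -0.26 (SE 0.18, adjusted p = 0.63), and the median of the 4 was -0.52.

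The 11 ER chaperones and co-chaperones gave a median log2 fold change of -0.32 in DKO against control, 10 of them lay below 0, and 0 passed. Hspa5 (BiP), the main Hsp70 of the ER and the inhibitor that all 3 sensors bind at rest, had 12.11 and 12.57 in DKO, 12.32 and 12.81 in Ovol1 KO and 12.50 and 13.07 in control. In each group array 2 lay higher, and DKO 2 exceeded control 1. Its log2 fold change was -0.44 (SE 0.25, limma adjusted p = 0.51).

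Hsp90b1 (GRP94), the Hsp90 of the ER, gave 12.12 and 12.23 in DKO, 11.81 and 12.47 in Ovol1 KO and 11.88 and 12.71 in control. Both DKO arrays lay between the control arrays, and the log2 fold change was -0.12 (SE 0.30, limma adjusted p = 0.94). The lectin chaperones Calr and Canx had -0.13 and 0.02, and Canx had the smallest standard error of the members, 0.09.

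In 3 of these 11, Dnajb9, Dnajb11 and Dnajc3, which are J-domain co-chaperones of Hspa5, both DKO arrays lay below the other 4, a pattern that 13.4% of all genes had. Dnajb9 (ERdj4), which hands Hspa5 to Ern1 and to misfolded proteins, gave 10.06 and 10.53 in DKO, 11.40 and 10.95 in Ovol1 KO and 11.40 and 11.17 in control. The DKO arrays lay below all others, and the log2 fold change was -0.99 (SE 0.23, limma adjusted p = 0.078). On the values as deposited, without quantile normalization, it was -1.03 and passed (adjusted p = 0.048). Dnajb11 (ERdj3) had 9.90 and 9.88 in DKO, 10.35 and 10.24 in Ovol1 KO and 10.44 and 10.36 in control. Its arrays agreed within each group to about 0.1, DKO lay below the rest, and the log2 fold change was -0.51 (SE 0.16, adjusted p = 0.19). Dnajc3 (P58IPK) had -0.29 (adjusted p = 0.46), and its further probe set held identical values.

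The other members of the class had wide replicate spreads. Sdf2l1, a partner of Hspa5 and Dnajb11, had a log2 fold change of -0.36 with an SE of 0.57, and array 2 exceeded array 1 by 0.76 in DKO, 1.44 in Ovol1 KO and 1.28 in control. Hyou1, an exchange factor for Hspa5, had -0.43, and Creld2 and Manf, ER proteins induced by stress, had -0.32 and -0.22. The disulfide isomerases Pdia3, Pdia4 and Pdia6, which form and reshuffle disulfide bonds, had log2 fold changes of 0.12, 0.24 and -0.04, with a median of 0.12. None of the 3 had a DKO array outside the range of the controls. A second, dimmer probe set of Pdia4 differed by less than 0.01 between DKO and control.

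In ER-associated degradation, which returns misfolded proteins to the cytosol, 0 of 4 members passed and Herpud1 had the lowest value. Herpud1, an ER membrane protein that assembles the degradation complex, had 10.84 and 11.10 in DKO, 11.28 and 11.80 in Ovol1 KO and 11.56 and 12.11 in control. Both DKO arrays lay below all 4 others, and the log2 fold change was -0.87 (SE 0.24, limma adjusted p = 0.14). The ubiquitin ligase Syvn1 (HRD1), its adaptor Sel1l and the mannose-recognition factor Edem1 had -0.05, -0.15 and -0.15, and the median of the 4 was -0.15.

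**Figure D3:**
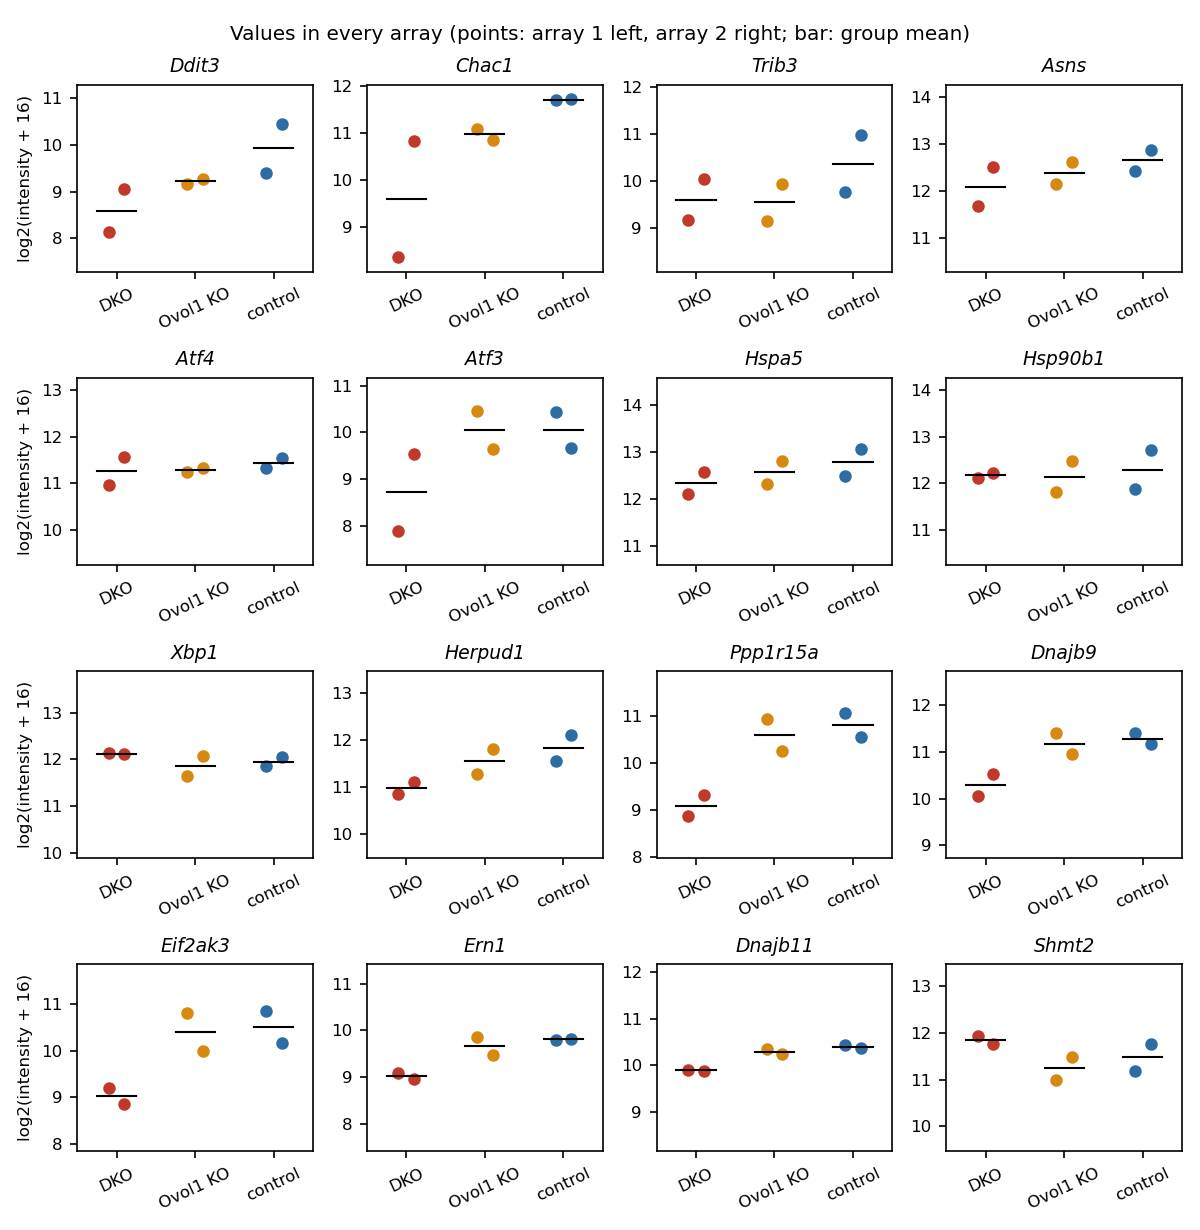
Level of 16 members (panels) on every array as log2(intensity + 16) on y axes of equal span, with DKO in red, Ovol1 KO in orange and control in blue; points are arrays 1 (left) and 2 (right), and bars are group means. Ppp1r15a, Chac1, Ddit3, Atf3, Eif2ak3, Ern1, Dnajb9, Dnajb11 and Herpud1 show both DKO points below all others, by a small margin in Chac1, Ddit3 and Atf3. Hspa5, Hsp90b1, Trib3, Asns and Atf4 overlap between groups.

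The Atf4-type targets Ddit3, Chac1, Trib3 and Asns were set against the 12 ER chaperones and disulfide isomerases, per array and relative to the control mean of each gene. The mean of the 4 targets was -1.84 and -0.56 log2 units on the DKO arrays, -0.78 and -0.49 on the Ovol1 KO arrays and -0.34 and 0.34 on the control arrays. The mean of the 12 chaperones was -0.35 and -0.14 in DKO, -0.36 and 0.07 in Ovol1 KO and -0.24 and 0.24 in control. Targets lay below chaperones on all 4 knockout arrays. On the control arrays targets minus chaperones was -0.10 and 0.10. These values are equal and opposite by construction, since each gene was set relative to the mean of the control arrays. Both control arrays could therefore not lie on the same side of 0.

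The difference, targets minus chaperones, was -1.49 and -0.42 on the DKO arrays, -0.42 and -0.57 on the Ovol1 KO arrays and -0.10 and 0.10 on the control arrays. Its group means were -0.95 ± 0.76 in DKO, -0.49 ± 0.11 in Ovol1 KO and 0 ± 0.15 in control (SD, n = 2 each). DKO 2 equalled Ovol1 KO 1, so that the lower DKO mean rested on DKO 1, and without it the DKO value was -0.42. No test was made of this difference, since it was built from chosen genes, and a mean of 4 genes can rest on 1: Chac1 alone stood at -3.35 from its control mean on DKO 1. With all 14 regulators and enzymes in place of the 4 targets, the Ovol1 KO value was -0.19.

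**Figure D4:**
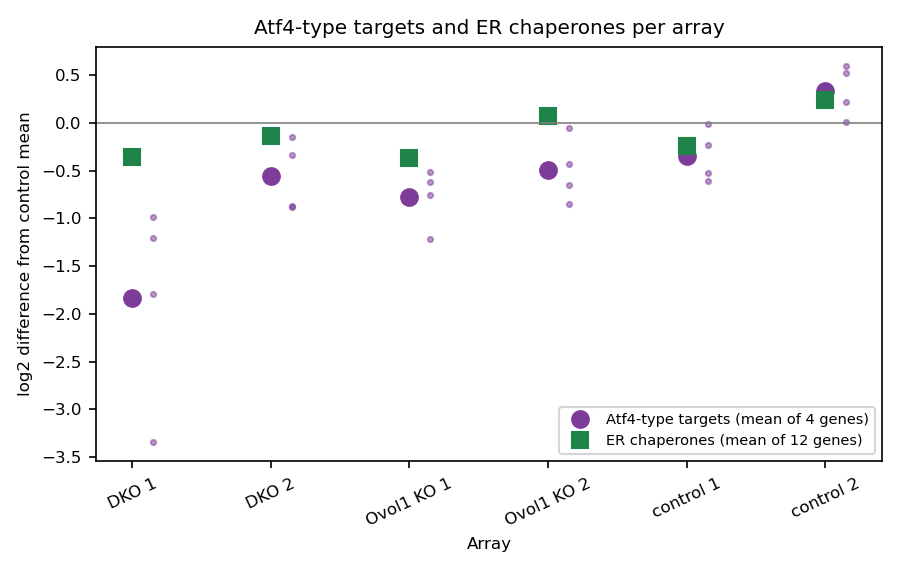
Mean log2 difference from the control mean (y axis) on each array (x axis) for the 4 Atf4-type targets (large purple circles, with the single genes as small points) and for the 12 ER chaperones and disulfide isomerases (green squares). The targets lay at -1.84 on DKO 1 and between -0.78 and -0.49 on the other 3 knockout arrays, while the chaperones stayed between -0.36 and 0.24 throughout.

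The members were also divided by promoter element. The 5 members with the C/EBP-ATF element had log2 fold changes from -2.12 to -0.57 in DKO against control, with a median of -0.87, and 5 of 5 lay below 0. The 8 members with the searched form of the ER stress response element had values from -0.44 to 0.02, with a median of -0.12. Of these, 7 of 8 lay below 0. Herpud1 at -0.87 and Dnajb11 at -0.51 hold its outer bases in another arrangement, which was not searched. The division thus depends on the form searched. In Ovol1 KO against control the medians were -0.29 and -0.08. Ppp1r15a, Ddit3, Eif2ak3 and Mthfd2, which lay beyond -1 in DKO, were in neither group. These are descriptions of chosen genes, and no test was made of them.

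Ovol1 KO against control asked about the loss of Ovol1 alone. In limma, 0 of 36 members and 0 of 19938 genes, 0% of all genes, passed at an adjusted p below 0.05. At an unadjusted p below 0.05, 0 members passed in either direction, beside 119 genes lower and 43 higher over the whole table, 0.597% and 0.216% of all genes. Negative log2 fold changes were found in 34 of the 36 members, with Atf3 and Syvn1 as the exceptions, against 65.7% of all genes. The member median was -0.19, beside -0.06 over all genes, and it too turned on single arrays, with -0.38 without control 1, -0.02 without control 2, -0.06 without Ovol1 KO 1 and -0.36 without Ovol1 KO 2.

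The 3 lowest values in Ovol1 KO against control were those of Trib3, Chac1 and Ddit3. Trib3 stood at -0.82 on the log2 scale (SE 0.48), Chac1 at -0.73 (SE 0.68) and Ddit3 at -0.71 (SE 0.42), all with an adjusted p of 1 in limma. Both Ovol1 KO arrays lay below both control arrays in Chac1 and Ddit3, but not in Trib3, whose second array stood above control 1. Asns, the remaining Atf4-type target, had -0.28 (SE 0.30) and lay above several other members, among them Atf5 at -0.44 and Mthfd2 at -0.35. The median was -0.12 for the 11 ER chaperones and co-chaperones and -0.17 for the disulfide isomerases. Ppp1r15a, Eif2ak3 and Dnajb9, which had the smallest p-values in DKO against control, had -0.22, -0.09 and -0.11 in Ovol1 KO.

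DKO against Ovol1 KO, which by their labels differ in the Ovol2 alleles and the Cre transgene, gave 0 called members of 36 in limma, against 429 called genes or 2.15% of all genes. At an unadjusted p below 0.05, 5 members were lower in DKO, against 7.04% of all genes, and 1, Shmt2, was higher, against 6.23% of all genes. The 5 were Ppp1r15a, Ern1, Eif2ak3, Dnajb9 and Dnajb11. The DKO arrays lay below both Ovol1 KO arrays in 11 members, against 16% of all genes, and above both in 2 members, Shmt2 and Xbp1, against 26.1% of all genes. The same 11 members lay below all 4 other arrays on both DKO arrays, which held for 13.4% of all genes. DKO shares its arrays between this comparison and the one with control, so these counts are not independent of those above.

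Between DKO and Ovol1 KO the log2 fold change of Ppp1r15a was -1.50 (SE 0.30, limma adjusted p = 0.066), and that of Eif2ak3 was -1.38 (SE 0.34, adjusted p = 0.12). Both passed when only the 4 compared arrays were fitted, with adjusted p-values of 0.022 and 0.039. Dnajb9 had -0.88 (SE 0.23, adjusted p = 0.13), Ern1 -0.63 (SE 0.20, adjusted p = 0.23), Dnajb11 -0.40 (SE 0.16, adjusted p = 0.34) and Shmt2 0.59 (SE 0.24, adjusted p = 0.36). Atf4-type targets were mixed here: Chac1 had -1.38 (SE 0.68) and Ddit3 -0.63, while Asns had -0.28 and Trib3 0.05. The Chac1 value was -0.15 without DKO 1 (adjusted p = 0.73) and -2.62 without DKO 2, where it passed (adjusted p = 0.0094). Over the 36 members the median was -0.12, beside 0.09 over all genes, and its sign depended on single arrays, with 0.02 without DKO 1 and 0.02 without Ovol1 KO 2, but -0.33 without DKO 2 and -0.33 without Ovol1 KO 1.

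**Figure D5:**
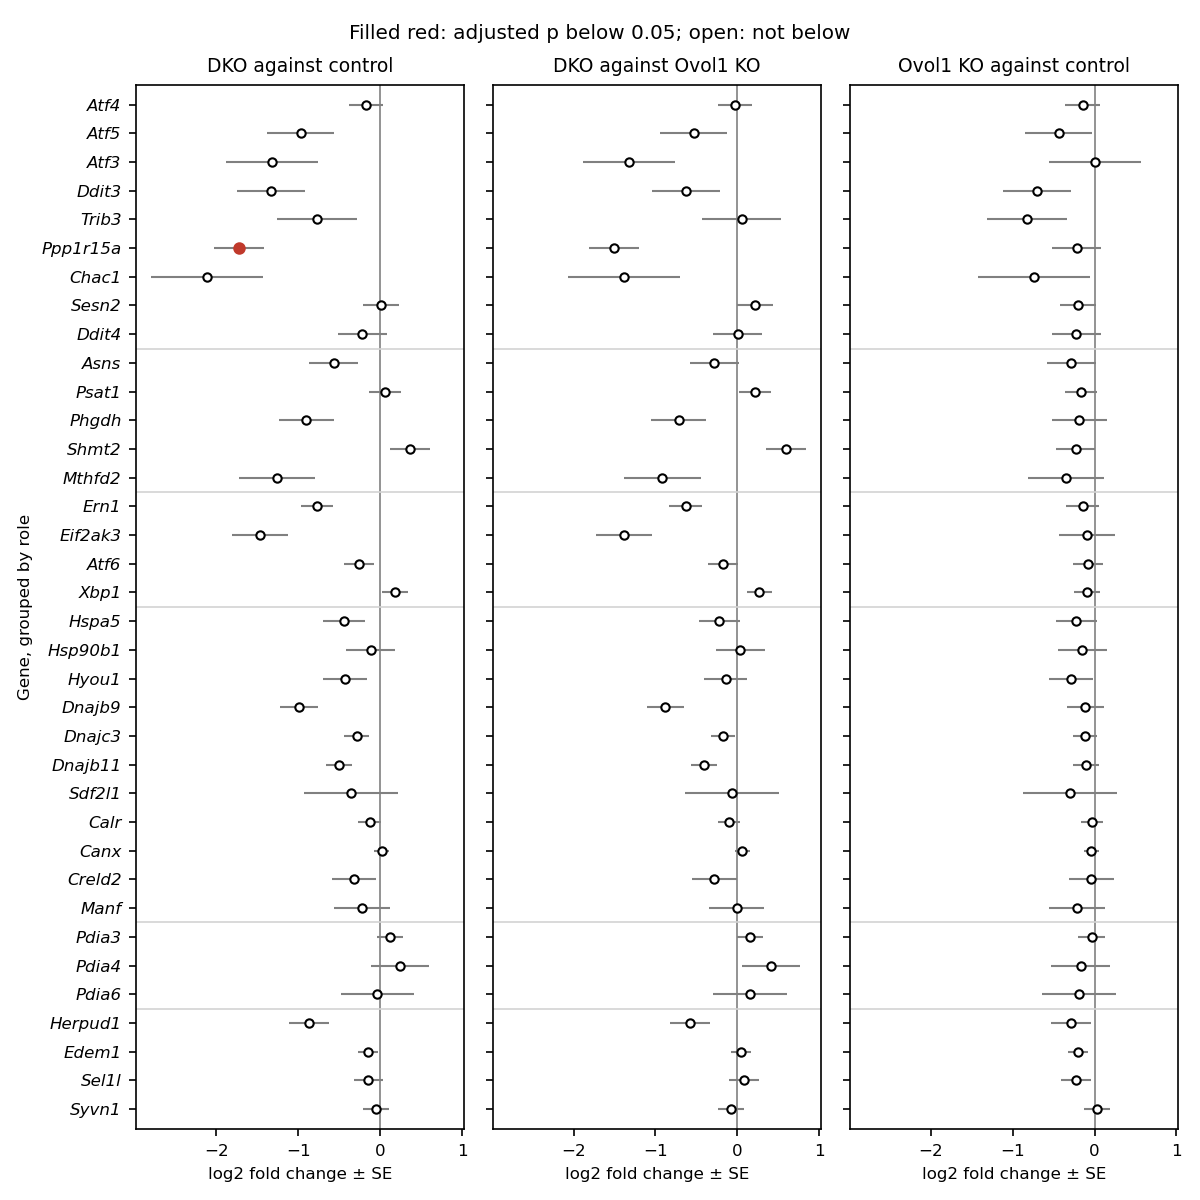
Log2 fold change with its standard error (x axis) of every member (y axis, grouped by role) in DKO against control, DKO against Ovol1 KO and Ovol1 KO against control; the filled red point passed an adjusted p below 0.05 and open points did not. Ppp1r15a at -1.72 is the one filled point, and in Ovol1 KO against control the values lie between -0.82 and 0.03.

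Much of the variation of these genes lay within groups. DKO 2 exceeded DKO 1 in 28 of 36 members, Ovol1 KO 2 exceeded Ovol1 KO 1 in 25, and control 2 exceeded control 1 in 27, against 52.6%, 68.2% and 52.4% of all genes. In Ovol1 KO the share of members, 69.4%, was close to that of all genes. The widest gaps were in Chac1, Atf3 and Mthfd2 within DKO, at 2.47, 1.65 and 1.60, and in Sdf2l1 within Ovol1 KO and within control, at 1.44 and 1.28. Array by array, DKO 1 lay below both controls in 26 of 36 members, against 39.5% of all genes, and DKO 2 in 16, against 33.2%. Ovol1 KO 1 lay below both controls in 28 members, against 55.2% of all genes, and Ovol1 KO 2 in 13, against 5988 of the 19938 genes. Array 1 of either knockout group thus carried more low members than array 2.

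Further genes of these pathways were counted from lists. Of 24 other targets of the integrated stress response, 22 were measured and 0 passed in DKO against control, with a median log2 fold change of -0.22. Of the 22, 18 lay below 0, against 45.7% of all genes. Of 12 cytosolic tRNA synthetases, which charge tRNAs and are Atf4 targets in part, 11 were measured and 0 passed. All 11 lay below 0 in DKO against control (median -0.18), where 45.7% of all genes did. All 11 also lay below 0 in Ovol1 KO against control (median -0.20), where 65.7% of all genes did. The 11 of 12 further degradation genes, 12 of 14 translocation and signal peptidase genes and 9 of 11 eIF2 alpha kinases and membrane factors that were measured had 0 passing genes and medians of -0.17, -0.14 and 0.10.

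Of 12 other ER folding and redox genes, all measured, 1 fell in DKO against control. Wfs1, an ER membrane protein that limits ER stress in secretory cells, had 8.19 and 8.42 in DKO, 9.19 and 9.27 in Ovol1 KO and 9.40 and 9.63 in control. The DKO arrays were the lowest pair, and the log2 fold change was -1.21 (SE 0.19, limma adjusted p = 0.025). The call was lost when any 1 of the 6 arrays was left out (adjusted p between 0.054 and 0.13), with only the 4 compared arrays (0.054) and with Xist as a covariate (0.61).

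Cytosolic heat shock genes, a separate folding system, were counted for comparison, and 1 of 9 measured out of 12 listed fell. Hsp90aa1, the inducible cytosolic Hsp90, gave 12.25 and 12.16 in DKO, 12.98 and 12.90 in Ovol1 KO and 12.99 and 13.04 in control. DKO lay below all others with little spread, at -0.81 against control (SE 0.08, limma adjusted p = 0.0054) and -0.74 against Ovol1 KO (adjusted p = 0.009). With Xist as a covariate neither passed, at adjusted p-values of 0.36 and 0.099. The call against Ovol1 KO was also lost without Ovol1 KO 1 (0.088), without DKO 2 (0.057) and without a variance trend (0.065).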

How the data were processed

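RNA was hybridised to Affymetrix arrays that cover whole transcripts. The authors deposited 1 intensity per probe set and array, linear and already summarised, for 35556 probe sets. Per the submitters' processing notes, Affymetrix Expression Console 1.1.1 and PLIER 2.0 were used, with no role named. How background and array differences were treated is not given in the sources used here. No detection call exists, so dim values were not separated from background. Array medians ran from 174.2 to 203.6.

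Intensities plus 16 were log2-transformed and, as array quartiles differed by 0.218 (above a limit of 0.2), quantile-normalized, so fold changes understate those of dim genes. Of the probe sets, 21789 carried 1 symbol, 1621 several and 12146 none here. The brightest per gene entered the tests. Dnajc3 and Pdia4 had a further probe set, and Phgdh also lies on one shared with other genes, which was not used.

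A limma 3.58.1 model (R 4.3.3) with group means and a variance trend covered all 6 arrays, two-sided, with 3 residual and 3.89 prior degrees of freedom, and was tested on simulated data. Arrays of a group are biological replicates per the labels. Each SE pools the spread of all 3 groups. Alternatives changed the offset (1 or 64), skipped quantile normalization, dropped the dimmest 30% of genes, changed eBayes or the probe set rule, fitted only the 4 compared arrays, used the replicate number as a block or Xist as a covariate, changed the contrast's genes, or left out each array in turn. A block fit of only the Ovol1 KO and control arrays was added after the data were seen.

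The members and all gene lists were chosen with earlier results of these data known. Array values are given for the 4 contrast targets, Atf4, Atf3, Hspa5, Hsp90b1, Xbp1, Herpud1, called members and, per comparison, up to 8 members with the smallest unadjusted p below 0.05. From other lists, called genes are named. Mthfd2 and Creb3l1 were added after their values were seen.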

Additional observations from a re-analysis of the deposited data

How the results depend on the processing

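In DKO against control, the 639 called genes became 1069 with the replicate number as a block (replicate block), 8 with Xist as a covariate, and 258 to 735 when single arrays were left out. The 1 member called lower became 2 on the values as deposited, 5 with the replicate block (Ppp1r15a, Ddit3, Eif2ak3, Hspa5 and Herpud1), 0 with Xist, and 0 to 2 when single arrays were left out. In Ovol1 KO against control, the 0 called genes became 0 to 4 when single arrays were left out (4 without Ovol1 KO 1) and 133 with the replicate block on only the arrays of these groups, 2 of them members, Trib3 (adjusted p = 0.002) and Chac1 (adjusted p = 0.00042). In DKO against Ovol1 KO, the 429 called genes became 805 with the replicate block, 73 with Xist, 738 with only the 4 compared arrays, and 88 to 738 when single arrays were left out. The 0 members called lower there became 1 on the values as deposited, 1 with the replicate block, 2 with only the 4 arrays, and 0 to 2 when single arrays were left out. The targets minus chaperones value of Ovol1 KO was -0.49 and became -0.19 with all 14 regulators and enzymes. No called member changed sign under these alternatives. The causes were not tested, apart from the change in the arrays fitted. Same-numbered arrays are not known to share a litter or day, and their deviations from the group means correlated over genes at 0.687 between Ovol1 KO and control, 0.151 between DKO and control and 0.0875 between DKO and Ovol1 KO, so the block was not used in the report. With 2 arrays a group and no detection call, small differences in dim genes are out of reach.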

Other observations

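Creb3l1 (OASIS), an ER membrane transcription factor related to Atf6, was named after its values were seen. Its level was 10.72 and 11.02 on the DKO arrays, 8.34 and 9.26 on the Ovol1 KO arrays and 8.62 and 9.68 on the control arrays. Both DKO arrays lay above all 4 others. The log2 fold change did not pass in limma, at 1.72 in DKO against control (SE 0.42, adjusted p = 0.096) and 2.07 in DKO against Ovol1 KO (adjusted p = 0.067).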
